A study of Homo sapiens with 13 samples.

Results

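The 41 genes described here are core components, feedback regulators and targets of the canonical Wnt pathway. They were chosen by name, with earlier results of these data known, out of 23886 gene symbols in the deposited tables, and all 41 were found there. A mean normalised read count of at least 10 was reached by 37 of them in each of 2 comparison tables. The other 4 encode the secreted antagonists WIF1, DKK1, DKK4 and SFRP1. Fewer cells of a type and less RNA per cell cannot be told apart in bulk samples such as these.

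Wnt ligands are lipid-modified by the acyltransferase PORCN and bind Frizzled receptors together with the co-receptors LRP5 and LRP6. Dishevelled proteins then restrain the destruction complex of APC, AXIN1 and GSK3B, so that beta-catenin, the product of CTNNB1, escapes degradation. Beta-catenin joins TCF/LEF factors on DNA with BCL9 and PYGO proteins, and several of its targets feed back on the pathway. In the crypts of the colon this pathway maintains dividing cells, and the DLD-1 line carries a truncated APC protein, so that the destruction complex is impaired in every group.

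The RNA-seq libraries held polyadenylated RNA of DLD-1 cells, an established human colorectal adenocarcinoma line, harvested 72 h after they received 50 nM of a small interfering RNA (siRNA). The siSOX9 group held 3 samples of experiment 1 and 1 of experiment 2, and was set against 2 siCtrl samples of experiment 1 and 1 of experiment 2. The siY14 group held 4 samples of experiment 3, transfected with Y14 siRNAs numbered 9 and 10, and was set against 2 siCtrl samples of that experiment. SOX9 is a transcription factor of the crypt base, and Y14, encoded by RBM8A, belongs to the core of the exon junction complex that marks spliced mRNA. All groups were the same unsorted line treated with an siRNA, and the authors' siY14 arm pools both Y14 siRNAs.

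Each deposited table gives a mean normalised count per arm, and whole reads per library were recovered from these means for part of the genes. Recovered libraries carry letters from a, the deepest of its arm, and no sample name. Estimated library depth ran between 24.8 and 184 M counts for the siSOX9 table, and between 47.2 and 71.6 M for that of siY14. In the siSOX9 table, library a of each arm, at 184 M with siSOX9 and 179 M with siCtrl, was over 4 times deeper than any other. Chi-square per degree of freedom, over genes binned by mean, was 2.90 to 121 between library a and another library of its arm, and 1.36 to 5.84 among the others. Experiment 2 also held 1 sample of each group, but the tables do not tie a library to an experiment. In the siY14 table, libraries a and c differed by no more than counting noise, as did b and d, with chi-square per degree of freedom of 1.03 to 1.19 over genes with means of 20 to 2000. At means of 2000 to 10000 it was 0.460 for a and c and 0.643 for b and d, which is less than counting noise. The recovery favoured near-equal counts at high means, so closeness within a pair can be overstated there. Libraries of different pairs gave 4.54 to 48.8. The siCtrl libraries a and b of this table gave 0.977 to 1.17 up to a mean of 2000, and 4.57 above a mean of 10000. The siY14 libraries were therefore counted as 2 samples, each with the pooled reads of its pair, and these siCtrl libraries as 1, while the authors' p-values treat all 6 libraries as separate. Which siRNA a pair holds is not given by the tables. In an SD over the 2 pairs, a difference between siRNAs cannot be told apart from spread among samples. Nothing in the labels says that samples were separate cultures, so p-values speak of the spread among these samples alone, and that spread may be technical. SOX9 averaged 9067 with siSOX9 and 24468 with siCtrl in the authors' deposited table (log2 -1.43, adjusted p 1.40e-04), and RBM8A was listed at 0 in every arm, so that the knockdown of Y14 could not be checked. All 7 epithelial markers checked were measured in each arm, with a summed mean of 305872 with siSOX9 and 347362 with siCtrl, and of 317892 with siY14 and 428827 with its siCtrl, in the authors' deposited table. Of these, VIL1, an actin-bundling protein gene of the brush border, was called lower with siSOX9 (log2 -1.19, adjusted p 5.84e-08) and with siY14 (-0.57, 0.0187), and CDH1, the E-cadherin gene, lower with siY14 (-1.21, 0.0282), by the authors' deposited table. The 4 fibroblast markers summed to 151 with siSOX9 and 137 with siCtrl, and to 62.9 with siY14 and 116 with its siCtrl, in the authors' deposited table. With siSOX9 the collagen genes COL1A1 and COL3A1 were called higher, at means of 82.6 and 11.9 with siSOX9 and 34.1 and 0.647 with siCtrl (adjusted p 0.0217 and 0.00172), and the receptor gene PDGFRB lower, at 55.8 with siSOX9 and 102.7 with siCtrl (adjusted p 0.0247), by the authors' deposited table. The 4 immune markers summed to at most 86.2 in any arm and the 3 endothelial markers to at most 38.6 in the authors' deposited table. The defining markers PTPRC and CD3E (immune), DCN (fibroblast), and PECAM1 and CDH5 (endothelial) were at 0 to 2.81 in every arm of the authors' deposited table. The part of these markers in the results was not tested.

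The 3 members called higher with siSOX9 were the feedback genes SP5, APCDD1 and BAMBI, and their promoters are shown because the first comparison turns on these targets. The sequences run 5′ to 3′ from 250 bases before to 50 bases after the start site, as RefSeq gives them on GRCh38.p14, all on the plus strand. Capitals mark letters of a TCF motif, searched on both strands as CTTTGAA or as CTTTGAT, and also as CTTTGTA or as CTTTGTT. A SOX motif, searched on both strands as AACAAT or as ACAATG, was also looked for, and the letter strings of both motifs are distinct. The SP5 window is chr2:170715087-170715386, that of APCDD1 is chr18:10454385-10454684 and that of BAMBI is chr10:28677271-28677570.
SP5: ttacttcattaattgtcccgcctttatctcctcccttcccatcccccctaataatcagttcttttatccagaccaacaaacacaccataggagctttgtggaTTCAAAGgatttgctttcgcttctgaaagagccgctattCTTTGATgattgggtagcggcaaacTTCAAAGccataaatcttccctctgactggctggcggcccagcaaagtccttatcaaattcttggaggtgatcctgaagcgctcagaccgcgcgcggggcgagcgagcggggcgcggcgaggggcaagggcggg
APCDD1: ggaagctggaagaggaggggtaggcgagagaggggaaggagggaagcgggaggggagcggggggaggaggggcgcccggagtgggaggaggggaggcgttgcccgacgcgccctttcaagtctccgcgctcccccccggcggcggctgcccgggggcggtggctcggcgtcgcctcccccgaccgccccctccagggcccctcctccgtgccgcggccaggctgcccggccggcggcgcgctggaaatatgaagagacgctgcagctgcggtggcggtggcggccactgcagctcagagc
BAMBI: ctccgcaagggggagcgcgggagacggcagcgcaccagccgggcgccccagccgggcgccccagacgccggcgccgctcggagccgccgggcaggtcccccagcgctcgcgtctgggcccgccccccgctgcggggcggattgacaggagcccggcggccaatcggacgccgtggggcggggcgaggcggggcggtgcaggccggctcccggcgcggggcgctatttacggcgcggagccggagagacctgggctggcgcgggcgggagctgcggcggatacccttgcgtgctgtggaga
SP5 held 3 TCF matches, whose first bases lie 148, 109 and 84 bases before the start site, and no SOX match. APCDD1 and BAMBI held neither motif in this window. A TCF match occurred in 13.8% of 35116 promoters of the same length, and 3 or more matches in 0.179% of them. Promoters were at hand for 27 of the 41 genes, 34 windows in all, of which 4 held a TCF match, in SP5, TCF7, TCF7L2 and DKK1. A SOX match occurred in 2 of the 34 windows, in APC and TCF7L2, and in 16.7% of all promoters. GC content was 52.3% in the SP5 window, 76% in that of APCDD1 and 80% in that of BAMBI, with a median of 58.7% over all promoters. A match of letters is a description and shows no binding.

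The first comparison asked which of these transcripts differed when SOX9 was reduced. The feedback genes SP5, APCDD1 and BAMBI rose with siSOX9 and the Frizzled receptors FZD2 and FZD5 fell, while beta-catenin, the destruction complex and the TCF/LEF factors gave no call. At an adjusted p of 0.05 the authors' deposited table had 3 members higher and 2 lower with siSOX9, which is 13.5% of the 37 with a mean of at least 10. The same rule called 4.69% of all genes with such a mean, 1.58% higher and 3.11% lower, and 3.47% of all genes with reads. The members were chosen with earlier results of these data known, so their share is not an independent result. The median log2 ratio of siSOX9 over siCtrl was 0.10 over the 37 members and 0.013 over all genes with such a mean in the authors' deposited table. Reads in both arms were recovered for 16 of the 37, and siSOX9 and siCtrl libraries did not overlap in 8 of these, against 28.8% of recovered genes.

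**Figure D1:**
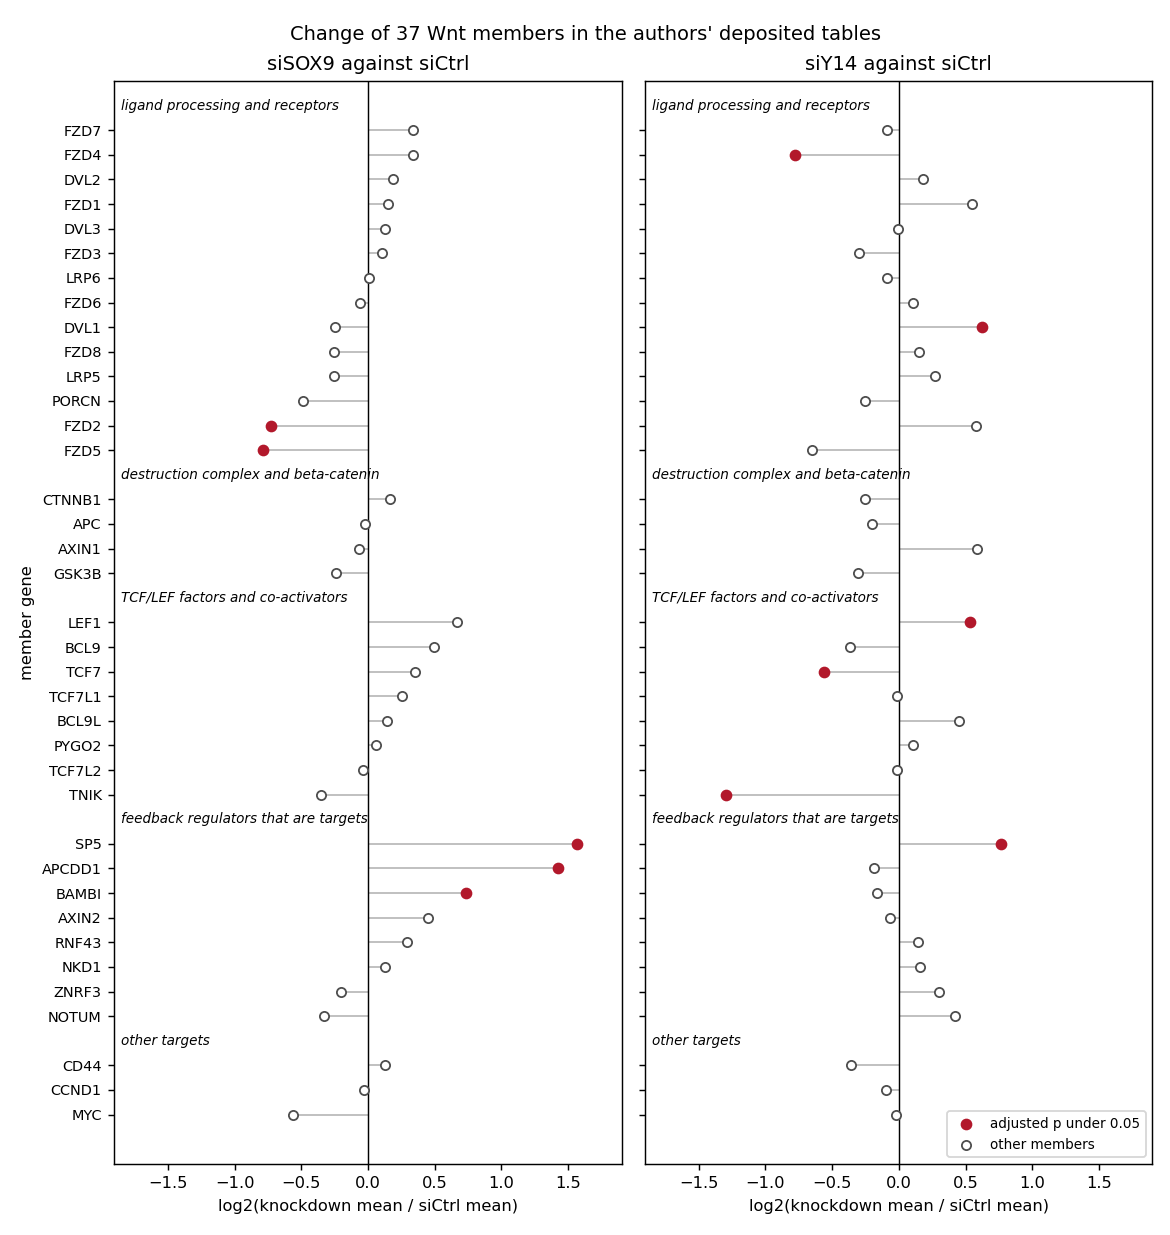
Log2 ratio of the knockdown mean over the siCtrl mean for the 37 members with a mean normalised count of at least 10, from the authors' deposited tables, grouped by role, with siSOX9 on the left and siY14 on the right. Filled points passed an adjusted p of 0.05: SP5, APCDD1 and BAMBI lie right of 0 and FZD2 and FZD5 left of 0 for siSOX9, while SP5, DVL1 and LEF1 lie right and TNIK, FZD4 and TCF7 left for siY14.

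Among ligand processing genes and receptors, 0 of 14 were called higher and 2 lower with siSOX9 in the authors' deposited table. Over all genes with a mean of at least 10 the shares were 1.58% higher and 3.11% lower. FZD5, a Frizzled receptor of the intestinal epithelium, had 635, 537, 588 and 499 normalised counts in siSOX9 libraries a to d, against 1029, 959 and 934 in siCtrl libraries a to c. Every siSOX9 library lay below every siCtrl library. The means were 565 ± 59.3 (SD, n = 4) with siSOX9 and 974 ± 49.3 (SD, n = 3) with siCtrl, a log2 ratio of -0.79 (adjusted p 0.00542 in the authors' deposited table). FZD2, another Frizzled receptor, had 294, 299, 285 and 263 normalised counts with siSOX9, against 516, 419 and 479.5 with siCtrl. The arms did not overlap here either, and the 4 siSOX9 libraries lay close together. FZD2 averaged 285 ± 15.8 (SD, n = 4) with siSOX9 and 472 ± 48.7 (SD, n = 3) with siCtrl, a log2 ratio of -0.73 (adjusted p 0.00762 in the authors' deposited table). In the 2 deepest libraries alone the log2 ratio was -0.70 for FZD5 and -0.81 for FZD2, and in the shallower ones -0.81 and -0.67.

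The other receptors did not pass in the authors' deposited table. FZD7, a Frizzled receptor studied in colon tumour cells, had 2940.1, 2680.4, 2780.0 and 2615 normalised counts with siSOX9, against 2393, 2103 and 2026 with siCtrl. All siSOX9 libraries were higher than all siCtrl libraries. Its log2 ratio was 0.34 (adjusted p 0.666 in the authors' deposited table), whereas a limma-voom test of the recovered reads gave 0.31 ± 0.08 (SE) with an adjusted p of 0.0254. That test called 17.6% of 9426 recovered genes. It called the 5 members of the authors' deposited table in the same direction, and FZD7 was the 1 further call among 16 members tested. Without both deepest libraries it called the same 6 and also PORCN, TNIK and ZNRF3, all lower, among 33.4% of genes. PORCN, the acyltransferase, had a log2 ratio of -0.49 and an unadjusted p of 0.0648 by the authors' deposited table, the lowest ratio below those called. Between PORCN and FZD7 lay FZD1, FZD3, FZD4, FZD6, FZD8, LRP5, LRP6 and the Dishevelled genes DVL1, DVL2 and DVL3, with log2 ratios of -0.26 to 0.34 in the authors' deposited table. Per kilobase of merged exons, the highest level of this role was that of DVL1, at 1115 normalised counts per kb with siSOX9 and 1322 with siCtrl. The lowest was that of FZD8, at 4.94 with siSOX9 and 5.90 with siCtrl.

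The destruction complex and beta-catenin gave 0 calls of 4 for siSOX9 in the authors' deposited table. CTNNB1 averaged 16685 normalised counts with siSOX9 and 14871 with siCtrl, a log2 ratio of 0.17 (adjusted p 1 in the authors' deposited table). APC and the scaffold gene AXIN1 had log2 ratios of -0.02 and -0.07, and the kinase gene GSK3B had -0.24, in the authors' deposited table. CTNNB1 had the highest level of the 4 per length, at 1399 normalised counts per kb with siSOX9 and 1247 with siCtrl. APC had the lowest, at 209 with siSOX9 and 213 with siCtrl.

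Of 8 TCF/LEF factors and co-activators, 0 were called for siSOX9 in the authors' deposited table, and 6 of the 8 ratios were above 1. So were 7109 of the 13649 ratios of all genes with a mean of at least 10. LEF1, a TCF/LEF factor and itself a Wnt target, averaged 7984 with siSOX9 and 5031 with siCtrl in the authors' deposited table. Its log2 ratio was 0.67 and its p was 0.0282 (adjusted p 0.352 in the authors' deposited table). The siCtrl libraries a to c had 3786, 5787 and 5522 normalised counts of LEF1, and reads of its siSOX9 arm were not recovered. BCL9, which links beta-catenin to PYGO proteins, had a log2 ratio of 0.49 with an adjusted p of 0.661, and TCF7 had 0.35, in the authors' deposited table. TNIK, a kinase that binds the TCF7L2 complex, had 556, 659.6, 657 and 582 normalised counts with siSOX9, against 701, 832 and 819.9 with siCtrl. The siSOX9 libraries lay below the siCtrl libraries by a small margin. The log2 ratio of TNIK was -0.35 (adjusted p 0.643 in the authors' deposited table). For TCF7L1, TCF7L2, BCL9L and PYGO2 the authors' deposited table gave log2 ratios of -0.04 to 0.25. With siCtrl the highest level per length of this role was that of PYGO2, at 1043 normalised counts per kb with siSOX9 and 998 with siCtrl. The lowest was that of TCF7L1, at 86.7 with siSOX9 and 72.8 with siCtrl.

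Feedback regulators that are themselves targets gave 3 higher and 0 lower of 8 for siSOX9 in the authors' deposited table, and their median log2 ratio was 0.37. Over all genes with a mean of at least 10 the shares were 1.58% higher and 3.11% lower. This role includes BAMBI by choice, which could also stand with the other targets. The lists were chosen with earlier results of these data known, so the count of this role is not an independent result. SP5, a zinc finger factor induced by Wnt signalling that acts back on Wnt target genes, had 883, 1609, 1478 and 1353 normalised counts in siSOX9 libraries a to d, against 351, 554 and 444 in siCtrl libraries a to c. The arms did not overlap, and library a, the deepest, was the lowest of each arm. SP5 averaged 1331 ± 316 (SD, n = 4) with siSOX9 and 449.9 ± 102 (SD, n = 3) with siCtrl, a log2 ratio of 1.56 (adjusted p 0.0138 in the authors' deposited table). Without siCtrl library a, limma-voom gave SP5 a log2 fold change of 1.17 that no longer passed.

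APCDD1, a membrane inhibitor that binds Wnt ligands and LRP co-receptors, had 544, 753, 623 and 679.7 normalised counts with siSOX9, against 205, 275 and 245 with siCtrl. Every siSOX9 library lay above every siCtrl library by a wide margin. The means were 650.2 ± 88.5 (SD, n = 4) with siSOX9 and 242 ± 35.1 (SD, n = 3) with siCtrl, a log2 ratio of 1.43 (adjusted p 7.62e-08 in the authors' deposited table). BAMBI, a pseudoreceptor of the TGF-beta family and a target of beta-catenin in colorectal tumour cells, had 2742, 3015, 3019 and 2918 normalised counts with siSOX9. It had 1548, 2001 and 1723 with siCtrl, so that the arms did not overlap. BAMBI averaged 2924 ± 129.6 (SD, n = 4) with siSOX9 and 1757 ± 228 (SD, n = 3) with siCtrl, a log2 ratio of 0.73 (adjusted p 0.00131 in the authors' deposited table). In the 2 deepest libraries alone the log2 ratio was 1.33 for SP5, 1.41 for APCDD1 and 0.83 for BAMBI, and in the shallower ones 1.57, 1.40 and 0.68.

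**Figure D2:**
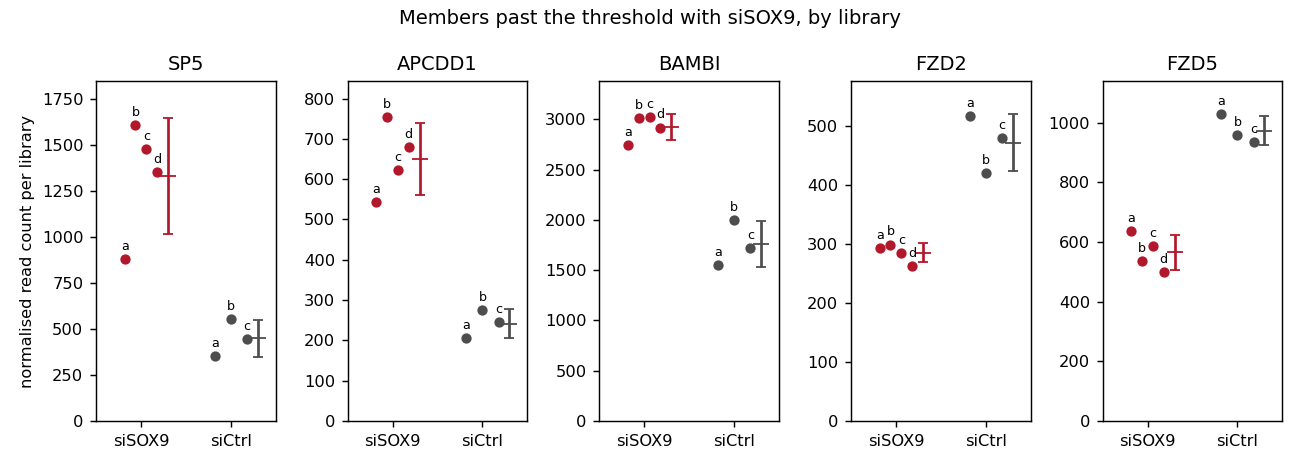
Normalised read count of the 5 members past the authors' adjusted p of 0.05, in 4 siSOX9 libraries (red, left) and 3 siCtrl libraries (grey, right), with letters from the deepest library, and with the mean and SD of each arm beside the points. For SP5, APCDD1 and BAMBI every siSOX9 library lies above every siCtrl library, and for FZD2 and FZD5 every one lies below.

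The other 5 feedback regulators did not pass for siSOX9 in the authors' deposited table. AXIN2, a scaffold of the destruction complex that is widely used as a readout of Wnt signalling, averaged 36558 with siSOX9 and 26715 with siCtrl in the authors' deposited table. Its log2 ratio was 0.45 and its p was 0.00957 (adjusted p 0.170 in the authors' deposited table). Reads per library were not recovered for AXIN2, so its spread is not known. RNF43, a ubiquitin ligase that removes Frizzled receptors from the cell surface, had a log2 ratio of 0.29 (adjusted p 0.677 in the authors' deposited table). Its relative ZNRF3 had 3217, 3111, 3218 and 2853 normalised counts with siSOX9, against 3637, 3667 and 3373 with siCtrl, and the arms did not overlap. The log2 ratio of ZNRF3 was -0.20 (adjusted p 1 in the authors' deposited table). NKD1, which antagonises Dishevelled, had 0.13 and NOTUM, a secreted enzyme that strips the lipid from Wnt ligands, had -0.33, both at an adjusted p of 1 by the authors' deposited table. AXIN2 had the highest level of the role per length, at 6995 normalised counts per kb with siSOX9 and 5112 with siCtrl, and NOTUM the lowest, at 17.8 with siSOX9 and 22.4 with siCtrl.

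Of the remaining targets, MYC, a growth-promoting transcription factor, averaged 10810.4 with siSOX9 and 15924 with siCtrl in the authors' deposited table. The log2 ratio was -0.56, and the authors' deposited table gave a p of 0.0143 and an adjusted p of 0.226. The cell cycle gene CCND1 had a log2 ratio of -0.03 and the adhesion receptor gene CD44 one of 0.12, each at an adjusted p of 1 by the authors' deposited table. CCND1 had the highest level per length of this role, at 5235 normalised counts per kb with siSOX9 and 5350 with siCtrl, and CD44 the lowest, at 962 with siSOX9 and 882 with siCtrl. The secreted antagonists were near or at 0. WIF1, which binds Wnt ligands, averaged 5.90 with siSOX9 and 5.29 with siCtrl in the authors' deposited table. SFRP1, which also binds ligands, averaged 0.140 with siSOX9 and 0.0967 with siCtrl, and DKK1 and DKK4, inhibitors of LRP co-receptors, were listed at 0 in both arms of the authors' deposited table.

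The second comparison asked which members differed in cells that received Y14 siRNAs. TCF7, FZD4 and SP5 had similar ratios in both pairs of siY14 libraries, while TNIK and DVL1 differed in size. FZD5, BAMBI and FZD1 differed in 1 pair far more than in the other. The pairs also disagreed for other members, such as FZD3, with log2 ratios of -0.09 for a and c and -0.57 for b and d. For APCDD1 these were 0.06 and -0.40, and for NOTUM, at low counts, 0.73 and 0.13. At an adjusted p of 0.05 the authors' deposited table had 3 members higher and 3 lower with siY14, which is 16.2% of 37. The same rule called 12.0% of all genes with a mean of at least 10, 4.99% higher and 7.01% lower, and 9.16% of all genes with reads. The median log2 ratio was -0.02 over the 37 members and -0.0013 over all such genes in the authors' deposited table. With each pair of libraries counted as 1 sample, limma-voom on recovered reads left 1 residual degree of freedom and called 0 of 20 members. In that fit 56 of 8978 genes passed, or 0.624%, and 1040 had an unadjusted p under 0.05, among them TNIK, DVL1 and FZD5 of the members. The 6 libraries did not overlap between siY14 and siCtrl in 12 of 20 recovered members, against 60.6% of recovered genes. The calls given here are thus those of a test that took 6 libraries as separate.

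Among receptors and their partners, DVL1 was the 1 member called higher of 14 and FZD4 the 1 called lower with siY14 in the authors' deposited table. Over all genes with a mean of at least 10 the shares were 4.99% higher and 7.01% lower. DVL1, a Dishevelled gene, had 2782 and 2765 normalised counts in siY14 libraries a and c and 3535 and 3541 in b and d, against 2045 and 2064 in siCtrl. Both pairs were above siCtrl, and the pair b and d was the higher. At the mean of DVL1 the recovery favoured near-equal counts, so closeness within a pair can be overstated. The mean of the 2 pairs was 3156 ± 539 (SD, n = 2), against 2053 in the 1 siCtrl pair. The log2 ratio was 0.62 (adjusted p 0.0133 in the authors' deposited table). FZD4, a Frizzled receptor, had 153 and 153 in libraries a and c and 148 and 170.3 in b and d, against 287 and 248 in siCtrl. All 4 siY14 libraries were below both siCtrl libraries. The pair mean was 155 ± 3.19 (SD, n = 2), against 271 in siCtrl, and the log2 ratio was -0.78 (adjusted p 0.00575 in the authors' deposited table).

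FZD5 had 1190.2 and 1162 normalised counts in siY14 libraries a and c, 549.9 and 474 in b and d, and 1281 and 1378 in siCtrl. The pair b and d was low, while a and c were close to siCtrl. Against siCtrl the log2 ratio was -0.16 for a and c and -1.35 for b and d, and over the whole arm it was -0.65 (adjusted p 0.378 in the authors' deposited table). FZD2 had 340.2 and 305 in a and c and 343 and 339 in b and d, against 228 and 218 in siCtrl, so that all siY14 libraries were higher. Its log2 ratio was 0.57 (adjusted p 0.0638 in the authors' deposited table), and limma-voom on 6 libraries gave 0.57 ± 0.11 (SE) with an adjusted p of 0.0156, where 24.7% of 8978 genes passed. FZD1 had 134 and 152 in a and c and 299 and 258 in b and d, against 139.8 and 149 in siCtrl, a log2 ratio of -0.02 for the first pair and 0.97 for the second. The other 9 genes of the role, among them LRP5, LRP6, DVL2, DVL3 and PORCN, had log2 ratios of -0.30 to 0.27 in the authors' deposited table.

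**Figure D3:**
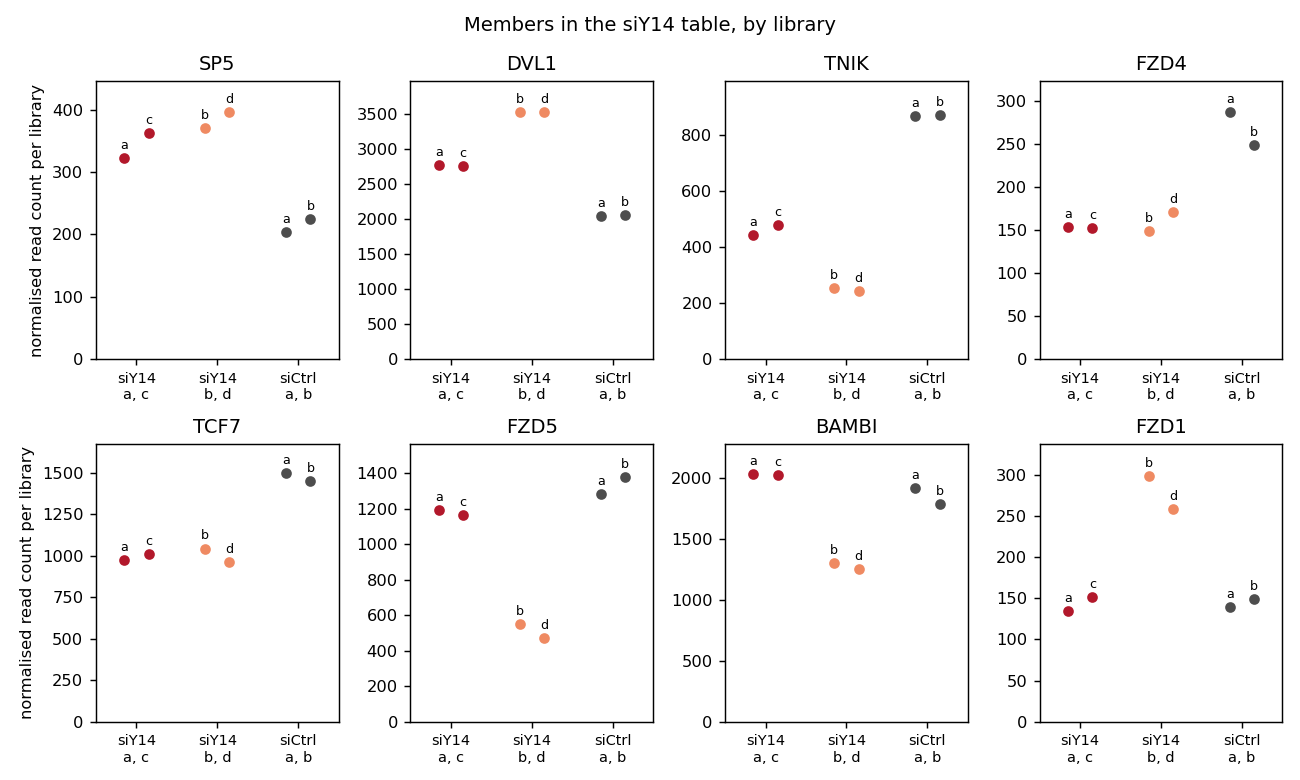
Normalised read count of 8 members in the siY14 table, with siY14 libraries a and c (red) and b and d (orange) left of siCtrl libraries a and b (grey). Libraries within a pair lie close together. For SP5, DVL1, TNIK, FZD4, TCF7 and FZD5 all siY14 libraries lie on the same side of siCtrl. FZD5, BAMBI and FZD1 were added after their values were seen because pair b and d lies far from pair a and c.

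The destruction complex gave 0 calls of 4 for siY14 in the authors' deposited table. AXIN1 averaged 5304 with siY14 and 3536 with siCtrl in the authors' deposited table. Its log2 ratio was 0.58 and its p was 0.00971 (adjusted p 0.0806 in the authors' deposited table). CTNNB1, APC and GSK3B had log2 ratios of -0.25, -0.20 and -0.31, and the authors' deposited table gave them adjusted p of 0.273 to 0.803.

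Of 8 TCF/LEF factors and co-activators 1 was higher and 2 were lower with siY14 in the authors' deposited table. Over all genes with a mean of at least 10 the shares were 4.99% higher and 7.01% lower. TNIK had 442 and 479 normalised counts in siY14 libraries a and c and 253 and 242 in b and d, against 865 and 869 in siCtrl. Both pairs were below siCtrl and b and d were the lower, with log2 ratios of -0.92 for a and c and -1.80 for b and d. The pair mean was 353 ± 147 (SD, n = 2), against 867 in siCtrl, and the log2 ratio was -1.29 (adjusted p 4.84e-05 in the authors' deposited table). TCF7 had 971 and 1011 in a and c and 1043 and 960.5 in b and d, against 1495 and 1449 in siCtrl. All siY14 libraries were below siCtrl by about the same amount, with log2 ratios of -0.58 and -0.55 for the 2 pairs. The log2 ratio of TCF7 was -0.56 (adjusted p 0.0214 in the authors' deposited table). LEF1 averaged 4880.2 with siY14 and 3372 with siCtrl, a log2 ratio of 0.53 (adjusted p 0.0361 in the authors' deposited table), and its siY14 libraries were not recovered. BCL9L had a log2 ratio of 0.45 with an adjusted p of 0.0841, and BCL9 had -0.37 with 0.728, in the authors' deposited table. TCF7L1, TCF7L2 and PYGO2 had log2 ratios of -0.02 to 0.11 in the authors' deposited table.

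Among feedback regulators SP5 was the 1 member of 8 called higher with siY14, and 0 were lower, in the authors' deposited table. Over all genes with a mean of at least 10 the shares were 4.99% higher and 7.01% lower. SP5 had 323 and 364 normalised counts in siY14 libraries a and c and 371 and 396 in b and d, against 204 and 224 in siCtrl. All siY14 libraries were above siCtrl. The pair mean was 361 ± 29.02 (SD, n = 2), against 213 in siCtrl, and the log2 ratio was 0.76 (adjusted p 0.00900 in the authors' deposited table). SP5 was the 1 member called in the same direction in both comparisons. APCDD1 had 166 and 161 in a and c and 114 and 126 in b and d, against 139.8 and 182 in siCtrl, so that the groups overlapped. BAMBI had 2033 and 2027 in a and c, 1299 and 1252 in b and d, and 1914 and 1787 in siCtrl, which lies between the pairs. AXIN2, NKD1, RNF43, ZNRF3 and NOTUM had log2 ratios of -0.07 to 0.42 with siY14 in the authors' deposited table. For MYC, CCND1 and CD44 the authors' deposited table gave log2 ratios of -0.02, -0.10 and -0.36 and adjusted p of 0.168 to 1. Of the secreted antagonists, WIF1 and DKK4 averaged 0.607 and 3.34 with siY14 and 1.72 and 3.44 with siCtrl, and DKK1 and SFRP1 were listed at 0, in the authors' deposited table.

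The tables share no control libraries, and a joint limma-voom model set the effects of both knockdowns against each other. It covered 15 members with recovered reads in both. The siSOX9 samples came from experiments 1 and 2 and the siY14 samples from experiment 3, so knockdown and experiment cannot be told apart in this difference. FZD2 averaged 472 in siCtrl of experiments 1 and 2 and 223 in siCtrl of experiment 3. With siSOX9 it averaged 285 and with siY14 332, each scaled within its own table. On all 13 libraries 6 differences passed an adjusted p of 0.05, as did 19.9% of 7783 genes. With the libraries of the siY14 table counted as 3 samples 2 passed, APCDD1 and FZD2, and 5.19% of genes did. APCDD1 had a difference of 1.61 ± 0.35 (SE) in that fit, with an adjusted p of 0.0260. FZD2 was lower with siSOX9 and higher in siY14 libraries, with a difference of -1.31 ± 0.23 (SE) and an adjusted p of 0.0122 in that fit. BAMBI, FZD4, TNIK and FZD7 had differences of 0.98, 1.13, 1.02 and 0.41 in that fit, with adjusted p of 0.0613 to 0.137, and passed on 13 libraries. SP5 had a difference of 0.71 ± 0.40 (SE) on 13 libraries, with an adjusted p of 0.230, so that a larger effect of siSOX9 on SP5 was not shown. FZD5 had a difference of -0.01 ± 0.38 (SE) on 13 libraries, an error that leaves room for a difference in either direction.

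**Figure D4:**
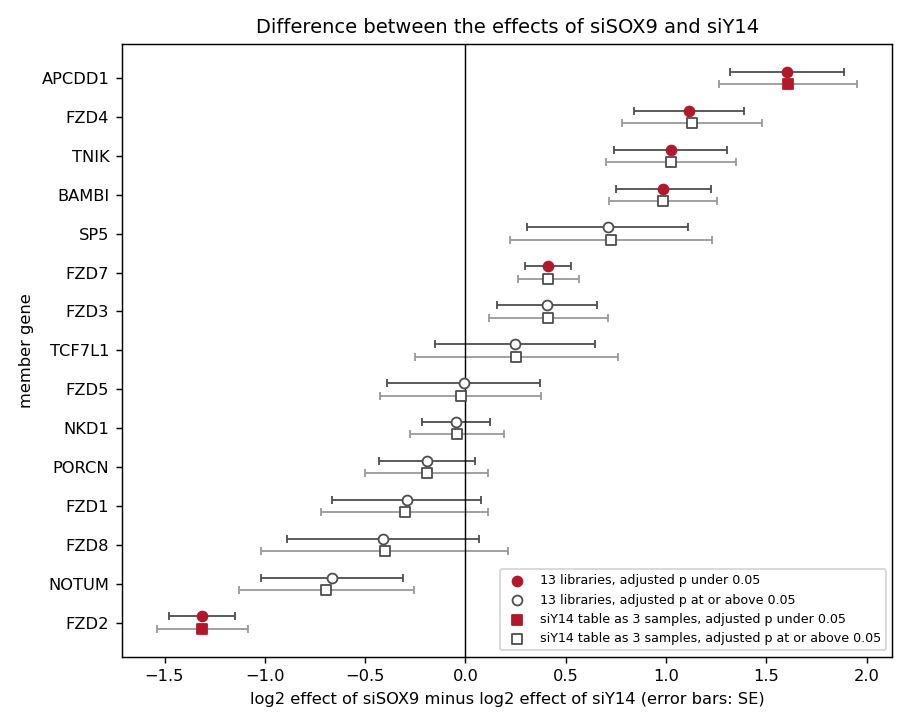
Log2 effect of siSOX9 minus log2 effect of siY14 for 15 members, with SE bars, on all 13 libraries (circles) and with the siY14 table counted as 3 samples (squares). Filled symbols passed an adjusted p of 0.05: 6 members on 13 libraries, and APCDD1 and FZD2 with 3 samples.

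Other genes of the pathway were counted from a list of 80 further components and 31 further targets. The list was chosen with earlier results of these data known, so its counts are not an independent result. Of 61 components with a mean of at least 10, 1 was higher and 4 were lower with siSOX9 in the authors' deposited table, against 1.58% and 3.11% of all such genes, and the median log2 ratio was -0.01. TLE4, a Groucho co-repressor of TCF factors, had a log2 ratio of 0.76 in the authors' deposited table. The Wnt ligand gene WNT7B had -1.21, DIXDC1, a Dishevelled-like protein gene, had -0.98 and the kinase gene HIPK2 had -0.92 in the authors' deposited table. LGR6, a receptor for R-spondins, averaged 133 with siSOX9 and 265 with siCtrl in the authors' deposited table. Of 26 targets 3 were higher and 6 lower with siSOX9 in the authors' deposited table, with a median of -0.15. All such genes again gave 1.58% higher and 3.11% lower. CCND2, a cyclin gene, averaged 221 with siSOX9 and 41.6 with siCtrl in the authors' deposited table. The adhesion gene NRCAM averaged 55.2 with siSOX9 and 10.3 with siCtrl, and the growth factor gene FGF20 had 216 with siSOX9 and 71.5 with siCtrl, in the authors' deposited table. Of the targets called lower, PROX1, a homeobox factor, had a log2 ratio of -2.27, and TERT, KCNE3, MYB, VEGFA and EPHB2 had -1.44, -1.23, -0.94, -0.71 and -0.59, all by the authors' deposited table.

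With siY14, 2 of 59 components were higher and 1 lower in the authors' deposited table, against 4.99% and 7.01% of all such genes. KREMEN2, a partner of DKK proteins, averaged 205 with siY14 and 87.7 with siCtrl, and AMER1, a binding partner of APC, had a log2 ratio of 0.60 in the authors' deposited table. TBL1XR1, a beta-catenin co-factor gene, had -0.51 in the authors' deposited table. Of 26 targets 2 were higher and 2 lower with siY14 in the authors' deposited table, against 4.99% and 7.01% of all such genes. TERT, the catalytic subunit of telomerase, had a log2 ratio of 0.96, with 256 in siY14 and 131 in siCtrl, and the nuclear receptor gene PPARD had 0.63, in the authors' deposited table. ID2, an inhibitor of helix-loop-helix factors, had -1.13 and the growth factor gene VEGFA had -0.57 in the authors' deposited table.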

How the data were processed

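The series measured RNA of DLD-1 cells in 13 samples by sequencing. Per the labels' protocols, poly(A) selection was followed by a stranded library kit. Per the submitters' processing notes, the authors worked on hg19 with DESeq, HTSeq, SAMtools, HISAT2, Bowtie and TopHat2. Their versions, order and strand settings are not given in the sources used here.

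Values came as 2 tables. Per the file headers, each holds a mean per arm, a signal made of counts over a size factor per library. Per the file headers the fold change is the ratio of arm means, and its log2 value stands beside it. Per the file headers a p-value and an adjusted one follow. Columns held no single library, and 0 per-sample columns went unused. The members, the lists and the rule for naming genes were chosen with earlier results of these data known. Members past the authors' adjusted p of 0.05 in either table, or with an absolute log2 ratio of at least 0.58, were described in full. FZD1, FZD7 and others beside them were added after their values were seen. Genes with a mean under 10 stayed out of counts. A marker of the immune list is not reported here.

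Whole reads per library were recovered from the 15 significant digits of the arm means, in both arms for 14403 of 18747 genes with reads (76.8%) for siSOX9, and for 13240 of 17706 (74.8%) for siY14. When tested on simulated data, the recovery accepted 2320 of 3000 simulated sets for siSOX9 and 2490 of 3000 for siY14, of which 0 were wrong, and it accepted 1 of 3000 and 0 of 2996 shifted means. The simulated sets took their spread from genes already recovered, so these rates may not hold for genes with a larger spread. High means were recovered less often and near-equal counts were favoured, so SDs of such genes can be too small. The limma-voom fits (limma 3.58.1, R 4.3.3) of recovered genes took library sizes from the authors' size factors, and p-values were adjusted by Benjamini-Hochberg. Tested on simulated data, the siSOX9 design on 9426 genes found 87 of 90 genes at a 2-fold change and 110 of 110 at 4-fold, and 15 of its 212 calls were false. The siY14 design on 8978 genes found 86 of 90 and 110 of 110, and 9 of its 205 calls were false. Both simulations drew all libraries as independent with the same spread. The real libraries differ from this, by library a of each arm in the siSOX9 table and by the library pairs in that of siY14. These rates may therefore not hold for the real libraries. Levels per kilobase used merged exons of GENCODE annotation on GRCh38, not the authors' build. Alternatives were other scaling, filters, pseudocounts, leaving out each library and merging library pairs.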

Additional observations from a re-analysis of the deposited data

Results flagged for a closer look

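In 1 of 16 members tested, 1 siSOX9 library stood far from the other 3. FZD4 had 308 normalised counts in siSOX9 library a, the deepest, and 205 to 214 in the others, while siCtrl library a had 233 and the other siCtrl libraries 160 to 163. Chance flags about 1 in 20 such groups.

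The effects of siSOX9 and siY14 differed for 6 members in the joint limma-voom model of 13 libraries, as did those for 19.9% of 7783 genes. The 2 knockdowns belong to different experiments, so knockdown and experiment cannot be told apart here. The difference, siSOX9 effect minus siY14 effect on the log2 scale, was 1.60 for APCDD1, -1.31 for FZD2, 1.12 for FZD4, 0.41 for FZD7, 0.99 for BAMBI and 1.02 for TNIK. FZD2 was higher in all siY14 libraries and lower in all siSOX9 libraries than in their siCtrl libraries. With the library pairs of the siY14 table merged, APCDD1 and FZD2 still passed, while FZD4, FZD7, BAMBI and TNIK did not, with adjusted p of 0.0613 to 0.137 in that limma-voom fit.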

How the results depend on the processing

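The 3 members higher and 2 lower with siSOX9 passed also when p-values were adjusted over genes averaging at least 10 alone, and in limma-voom with the authors', TMM or RLE factors and on log2(normalised count + 1). FZD7 was called besides in these limma fits, and TNIK, lower, on log2(normalised count + 1). Leaving out each library in turn gave 3 to 4 higher and 2 to 3 lower with siSOX9. APCDD1, BAMBI, FZD2 and FZD5 were called in each of those fits, and SP5 was lost without siCtrl library a (log2 1.17). With a term for the 2 deepest libraries, an alternative chosen after seeing the data, 6 were higher and 5 lower, and 5246 of 9426 genes passed. The further calls there were FZD3, FZD4 and FZD7, higher, and PORCN, TNIK and ZNRF3, lower. Without both deepest libraries, chosen likewise, 4 were higher and 5 lower, and 3151 genes passed.

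With siY14, leaving out each library gave 0 to 3 higher and 0 to 3 lower. Both counts were 0 without either siCtrl library, where 1 siCtrl library is assumed to vary like the other arm and 9 and 53 of 8978 genes passed, and 0 with library pairs merged, an alternative chosen after seeing the data. The number of effects that differed between knockdowns was 2 with pairs merged. Other Wnt genes higher with siY14 numbered 7 when p-values were adjusted over genes with a mean of at least 10, against 4. The cause was not tested. Of 520 alternative values, 481 kept direction and side of the threshold, 16 no longer passed, 12 newly passed and 11 changed sign, all of values that did not pass in the first place. Values under a pseudocount or centred on the median of all genes had no p-value of their own. They could thus change sign but not cross the threshold. Each pseudocount gave 37 such values per knockdown, all of which kept direction. Leaving out each library gave log2 values with siSOX9 of -0.12 to 0.58 for TCF7L1, -0.016 to 0.24 for NKD1 and -0.11 to 0.38 for FZD3. With siY14 it gave -0.053 to 0.011 for TCF7L1, -0.038 to 0.014 for TCF7L2, -0.38 to 0.00086 for APCDD1, -0.017 to 0.26 for FZD8 and -0.031 to 0.025 for DVL3. LRP6 with siSOX9 was at -0.0038 when centred on the median of all genes, and the difference of effects on FZD5 was 0.012 with TMM factors. No paired analysis was possible because the deposited columns carry no sample or replicate name. Reads of AXIN2, CTNNB1, MYC and CCND1, among others with high means, were not recovered in the knockdown arms, so their calls rest on the authors' table alone.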
